A study of Homo sapiens with 12 samples.

Results

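The regions described here are PAX5 binding sites that were found in both libraries of the Namalwa cell line and in no library of the 2 other lines mapped beside it. Peaks of the 6 deposited lists were merged where they overlapped by 1 bp or touched, which gave 14465 regions. A region was kept when each of the 2 Namalwa lists had a peak in it and no Raji or L428-PAX5 list had one. The rule left 508 regions, 3.51% of all merged regions and 27.0% of the 1879 regions with a peak in both Namalwa libraries. The members were thus chosen from the peak calls themselves, and their presence in Namalwa and absence elsewhere is a description with no test.

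PAX5 is a paired-domain transcription factor that commits lymphoid precursors to the B-cell fate and holds mature B cells in it. It binds promoters and enhancers, switches on B-cell genes such as CD79A and BLNK, and keeps genes of other lineages silent. Binding depends on the DNA sequence and also on chromatin and partner factors, so that cell lines of related origin can share many sites and still differ at others. Namalwa and Raji are human lines grown from Burkitt lymphoma, a tumour of germinal-centre B cells, and both were used without treatment. L428-PAX5 is a version of the Hodgkin line L428 that can be made to overproduce PAX5; Hodgkin tumour cells stem from the B lineage and express few B-cell genes. It was treated with mifepristone, and its PAX5 was induced 48 h before the cells were fixed. Absence elsewhere thus means absence from 1 other Burkitt line and 1 engineered Hodgkin line.

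Cells were crosslinked in 1% formaldehyde over 20 min, and PAX5 was pulled down with 10 µg of the antibody C-20. Each of the 3 lines had 2 immunoprecipitated and 2 input libraries. Nothing in the labels tells separate cultures of a line from repeat preparations, so differences between its libraries may be technical. The 6 peak lists held between 2107 and 6241 peaks, and both extremes were Namalwa libraries, with 6241 peaks in replicate 1 and 2107 in replicate 2. Every listed peak had a p-value below 1e-05. Read depth is unknown, and a region missing from a list can lie just under that limit.

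The deposited positions are on hg19, whereas the gene tables at hand are on another build. Genes, exons, introns, motifs and base sequences of the regions are therefore not reported, and regions are named by chromosome, start and end as deposited.

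Most Namalwa sites were shared with Raji. Of the 1879 regions found in both Namalwa libraries, 1009 (53.7%, exact 95% interval 51.4 to 56.0%) had a peak in Raji and none in L428-PAX5. A further 323 regions (17.2%, 15.5 to 19.0%) had peaks in both other lines. Only 39 (2.08%, 1.48 to 2.83%) had a peak in L428-PAX5 without one in Raji. The 508 Namalwa-only regions made up the remaining 27.0% (25.0 to 29.1%). By the same rule 441 regions were found in Raji only, which is 3.05% of all merged regions and 20.2% of those found in both Raji libraries. L428-PAX5 alone had 2043, which is 14.1% of all merged regions and 82.1% of those found in both of its libraries. These intervals reflect only the counting of regions. With only the 2107 strongest peaks of each list, as many as the shortest list holds, the Namalwa-only regions numbered 461, 33.7% of 1369 (31.2 to 36.2%), against 429 for Raji (30.3%, 28.0 to 32.8%) and 1099 for L428-PAX5 (85.4%, 83.3 to 87.3%). With lists of equal length the intervals of Namalwa and Raji overlapped.

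The size of the set turned on a pair of libraries. Without Namalwa replicate 2 the rule asks for a peak in replicate 1 alone, and 3021 regions (49.0% of the Namalwa regions) were Namalwa-only. Without Raji replicate 2, the longer Raji list, the number was 794 (42.3%). Leaving out any of the other 4 libraries gave 511 to 638 regions.

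The replicate requirement removed more candidates than the requirement of absence elsewhere. Replicate 1 had a peak in 3016 regions with no peak in another line, and replicate 2 had one in 508 of them (16.8%, 15.5 to 18.2%). Of the 3143 regions of replicate 1 that did have a peak in another line, replicate 2 held 1371 (43.6%, 41.9 to 45.4%). In the other direction, replicate 1 held 508 of the 631 regions of replicate 2 with no peak in another line (80.5%, 77.2 to 83.5%) and 1371 of the 1447 with one (94.7%, 93.5 to 95.8%). In both directions the share found again was lower for sites seen in no other line, and the counting intervals did not overlap. Raji showed the same order, with 64.9% (61.2 to 68.5%) against 90.9% (89.6 to 92.2%) of the regions of its replicate 1 found in replicate 2. For L428-PAX5 replicate 1 the shares were 40.0% (38.6 to 41.4%) and 42.6% (39.6 to 45.7%), with overlapping intervals. For its replicate 2 they were 76.3% (74.7 to 77.9%) and 81.5% (77.9 to 84.6%), with intervals that nearly met. All these sets come from the same peak calls as the rule, so the shares are a description. Among regions of both Namalwa libraries, those with a peak in another line were also the stronger, as given below. The part of peak strength in the shares was not tested. The 2508 regions found in Namalwa replicate 1 alone had a median −log10 p of 6.87, with a range of 5.01 to 35.8, and 123 regions were found in Namalwa replicate 2 alone.

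Namalwa-only regions were mostly weaker than the other regions found in both Namalwa libraries. The −log10 p of a peak was computed from the authors' p-value and ranks the peak within its own list, with larger values for stronger peaks. In replicate 1 the 508 regions had a lowest value of 5.01, a median of 12.6 and a highest value of 158.8, and in replicate 2 the values were 5.01, 6.92 and 117.9. The 1371 other regions of both Namalwa libraries had medians of 18.0 and 8.42. Over all peaks of a list the median was 8.62 in replicate 1, below that of the members, and 7.55 in replicate 2, above it. As percentiles within the lists, the medians of the Namalwa-only regions were 72.2 in replicate 1 and 40.9 in replicate 2, against 84.3 and 58.7 for the other regions. The distributions overlapped over nearly their whole range, and the presence of a peak entered the rule, so these values are given as a description.

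Few members were strong in both libraries. A −log10 p of at least 10 in both held for 84 of the 508 regions (16.5%), while 31.0% of all regions of both Namalwa libraries met it. At a level of 20 in both, 10 members remained (1.97%, against 5.48%), and at 30 only 3 (0.591%, against 1.81%). By contrast, 165 members (32.5%, 28.4 to 36.7%) had values under 10 in both libraries, as did 209 of the 1371 other regions (15.2%, 13.4 to 17.3%). Among the first 100 peaks of replicate 1 lay 9 members, and 508 members amount to 8.14% of the length of that list. Among the first 100 of replicate 2 there were also 9, although the members amount to 24.1% of that shorter list. The first 500 and 1000 peaks held 68 and 151 members in replicate 1 and 66 and 191 in replicate 2. Across the 508 members the −log10 p of replicates 1 and 2 had a Spearman rho of 0.454, and across the 1371 other regions it was 0.666. These correlations run over regions of the same pair of libraries and carry no test.

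**Figure D1:**
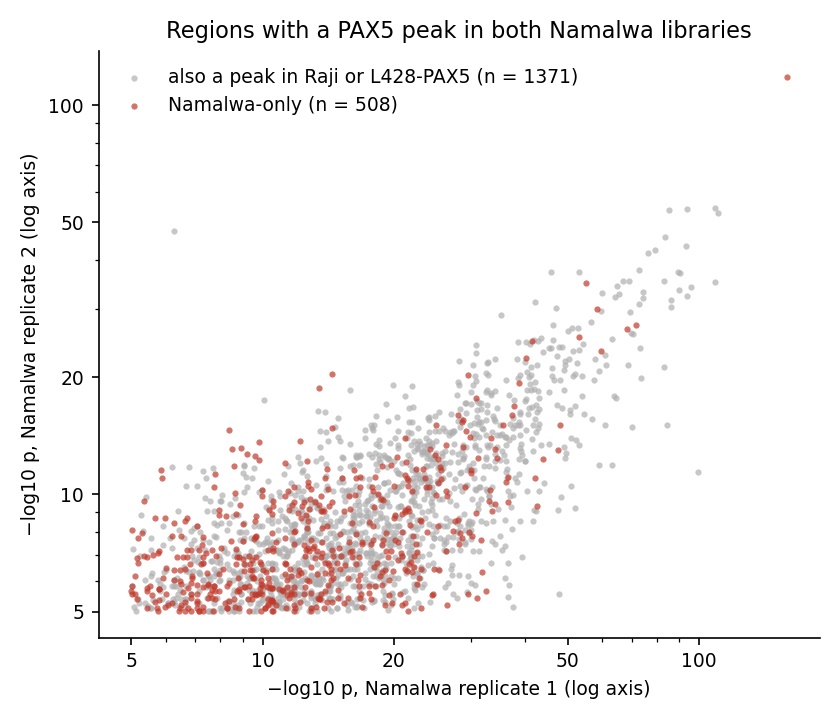
Each point is a region with a PAX5 peak in both Namalwa libraries, placed by the −log10 of the authors' p-value in replicate 1 (horizontal, log axis) and replicate 2 (vertical, log axis). The 508 Namalwa-only regions (red) lie mostly in the lower left among the 1371 other regions (grey), except for 1 region at 158.8 and 117.9 that lies above all others in both libraries.

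The share of Namalwa-only sites was lower among stronger Namalwa peaks. The 1879 regions were split into 10 classes of nearly equal size by their mean percentile over both Namalwa lists. In the weakest class 95 of 188 regions (50.5%, 43.2 to 57.9%) were Namalwa-only. The share was 26.6% (20.4 to 33.5%) in the fifth class and 8.51% (4.94 to 13.5%, 16 of 188 regions) in the strongest. Raji-only shares ran from 37.2% (30.7 to 43.9%) in the weakest class to 1.83% (0.502 to 4.63%) in the strongest. L428-PAX5-only shares showed no such gradient, with 81.9% (76.6 to 86.5%) in the weakest class and 81.5% (76.1 to 86.1%) in the strongest. Class and membership come from the same peak calls, so the gradient is a description.

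**Figure D2:**
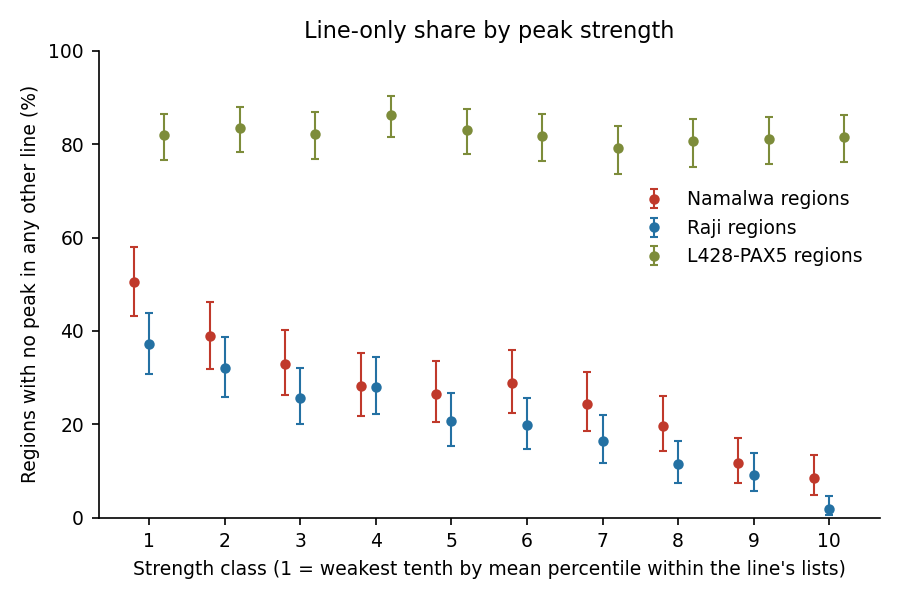
The share of regions with no peak in any other line (vertical, %) is plotted for 10 strength classes, from the weakest to the strongest by mean percentile within the lists of Namalwa (red), Raji (blue) or L428-PAX5 (green). Points are shares and bars exact 95% intervals over regions; the Namalwa share runs from 50.5% in the weakest class to 8.51% in the strongest, while that of L428-PAX5 is 81.9% and 81.5% in these classes.

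The strongest Namalwa-only region stood far above the rest. It lay on chromosome 2, 239684938 to 239686530, and was the first entry of both Namalwa lists. Replicate 1 had 2 peaks in it, with a −log10 p of 158.8 and 157.1, which took the first and second places of that list. Replicate 2 had a single peak of 1384 bp across the same stretch, with a −log10 p of 117.9. At 1592 bp it was also the widest of the 508 regions, whose median width was 636 bp. No other member exceeded 71.8 in replicate 1 or 35.0 in replicate 2.

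The surroundings of this region held peaks of all 3 lines, though none close by. The nearest Raji peak was 494.3 kb away and the nearest L428-PAX5 peak 95.4 kb away, the latter a weak call in replicate 1 with a −log10 p of 6.04. Within 1 Mb on either side, Namalwa replicate 1 had 14 peaks, counting the 2 in the region, and Namalwa replicate 2 had 4. L428-PAX5 had 8 and 3 peaks in that span, and Raji 2 and 3. One of the L428-PAX5 sites, at 827.3 kb, was the first entry of both lists of that line, with a −log10 p of 220.3 and 169.2. Namalwa replicate 1 also had 2 peaks at that site, of 11.6 and 5.76, and replicate 2 had none. The first-ranked regions of Namalwa and L428-PAX5 thus lay within 1 Mb of each other on chromosome 2, and each line's leading site was weak or without a peak in the other.

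**Figure D3:**
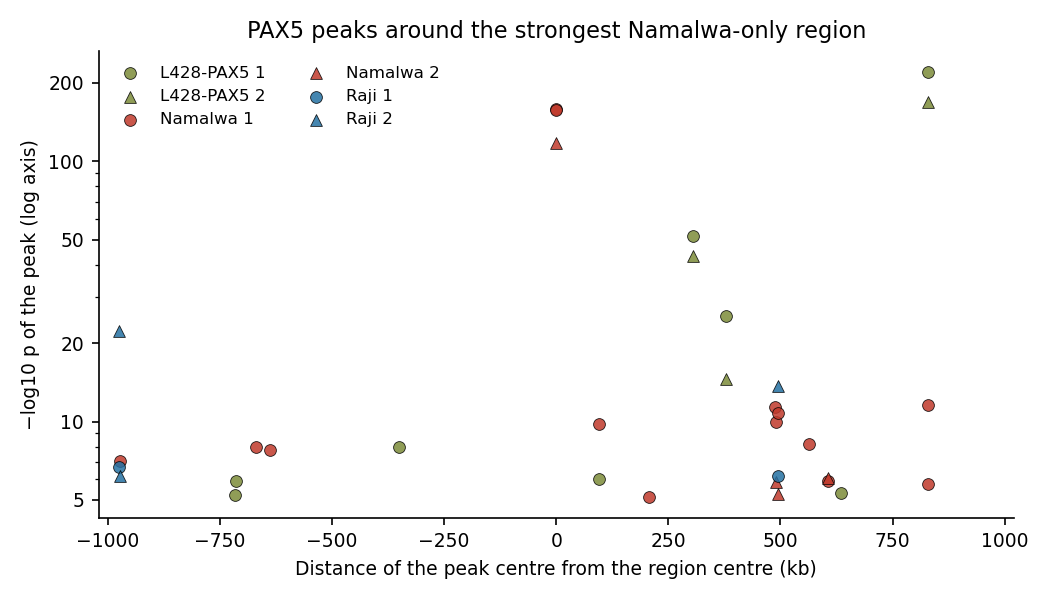
Peaks of all 6 libraries are shown by the distance of their centre from the centre of the strongest Namalwa-only region (horizontal, kb) and their −log10 p (vertical, log axis); circles are replicate 1 and triangles replicate 2. The 3 Namalwa peaks at the centre reach 117.9 or more, and the only other peaks above 100 are the 2 of L428-PAX5 to the right, 827.3 kb from the edge of the region.

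The next members by mean percentile over both Namalwa lists were of moderate strength. The second lay on chromosome 10, 126289610 to 126290458. Each library had 2 peaks in it, the stronger of which had a −log10 p of 55.0 in replicate 1 and 35.0 in replicate 2. The third, on chromosome 6, 13299355 to 13300016, had 71.8 and 27.2, and its nearest L428-PAX5 peak was 1435.1 kb away. The fourth was on chromosome 8, 144597306 to 144598164, with 58.5 and 30.0. These 3 regions took places 29 to 58 in the list of replicate 1 and 27 to 48 in that of replicate 2.

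Chromosome 1 held the fifth and the sixth. The fifth, 246936274 to 246937043, had a −log10 p of 68.5 and 26.6 and the nearest Raji peak of all 15 leading members, at 18.6 kb. The sixth, 2427370 to 2428052, had 52.9 and 25.4. The seventh, on chromosome 7, 97943679 to 97944916, had 59.5 and 23.3. Replicate 1 gave the higher value in all 15 leading members, and its whole list had the higher median, 8.62 against 7.55 in replicate 2.

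The remaining 8 of the first 15 had values of 29.6 to 48.0 in replicate 1 and 15.1 to 24.8 in replicate 2. They lay on chromosomes 22 (20021153 to 20022152), 14 (100131093 to 100131668), 9 (2291920 to 2292567), 10 (1531037 to 1531805), 12 (52511853 to 52512602), 2 (54861172 to 54862464), 3 (194024053 to 194025463) and 19 (50937661 to 50938168). None of the 15 had a Raji peak within 10 kb, with distances of 18.6 to 748.7 kb and a median of 113.6 kb. Of all 508 members 65 (12.8%) had one, so few would be looked for among 15. An L428-PAX5 peak lay within 10 kb of 4 of the 15, the nearest at 2.87 kb from the member on chromosome 22. Of all 508 members 42 (8.27%) had one.

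**Figure D4:**
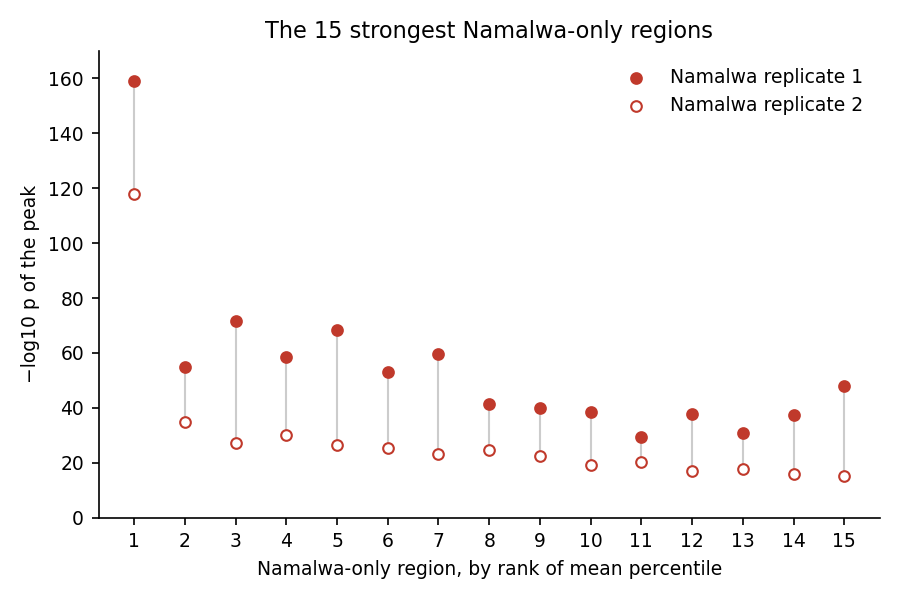
The 15 strongest Namalwa-only regions are ordered by mean percentile within both Namalwa lists (horizontal), with the −log10 p of the peak in replicate 1 (filled) and replicate 2 (open) on the vertical axis. The first region has 158.8 and 117.9, and the other 14 lie between 29.6 and 71.8 in replicate 1 and between 15.1 and 35.0 in replicate 2.

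At the other end, the weakest members sat at the limit of the lists. The lowest by mean percentile was on chromosome 11, 65342490 to 65343327, where the libraries had a −log10 p of 5.43 and 5.11. Next came chromosome 17, 36571564 to 36572323 (5.15 and 5.38), chromosome 10, 131859116 to 131859462 (5.02 and 5.55), chromosome 6, 28304257 to 28304650 (5.77 and 5.02) and chromosome 1, 226315174 to 226315921 (5.01 and 5.63). These 5 regions passed the limit of the caller by less than 1 unit of −log10 p in each library.

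Regions just outside the set were kept out by a single peak of another line. Among the regions of both Namalwa libraries, 333 had exactly 1 peak from another line, and for 284 of these it came from Raji replicate 2. That peak had a median −log10 p of 7.66 and a highest value of 27.0. The 5 with the weakest such peak lay on chromosome 2 (64067276 to 64068333), chromosome 1 (993264 to 993869 and 46161917 to 46162600), chromosome 5 (67533825 to 67534371) and chromosome 14 (23426307 to 23426704). The deciding peak had a −log10 p of 5.01 or 5.02 in all 5, and their own Namalwa values were 7.58 to 15.9 in replicate 1 and 5.02 to 6.11 in replicate 2. The median mean percentile of the 333 was 57.6, close to the 54.3 of the Namalwa-only regions.

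The peaks of both libraries lined up as closely in the members as in other Namalwa sites. The centres of the peaks in replicates 1 and 2 were a median of 47.5 bp apart in Namalwa-only regions and 46.0 bp in the other 1371, and lay within 100 bp of each other in 76.8% (72.9 to 80.4%) and 76.9% (74.6 to 79.1%). A library had more than 1 peak in 9 of the 508 regions (1.77%, 0.813 to 3.34%) and in 55 of the 1371 others (4.01%, 3.04 to 5.19%). The median region width was 636 bp, with quartiles of 509 and 804 bp, against 723 bp for the other Namalwa regions. The latter were merged from the peaks of more libraries, which widens a region by construction.

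The widest members after the first lay on chromosome 9, 92170370 to 92171954 (1584 bp), chromosome 7, 1125442 to 1126955 (1513 bp), chromosome 16, 3314039 to 3315552 (1513 bp), and chromosome 17, 80635579 to 80637058 (1479 bp). Their −log10 p was 5.76 to 14.1 in replicate 1 and 5.02 to 12.3 in replicate 2, and none of these 4 was among the 100 strongest members. In the region on chromosome 16 the 2 peak centres were 688.5 bp apart, the farthest of any member.

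Few members had a peak of another line within 10 kb, and most had one within 100 kb. The nearest Raji or L428-PAX5 peak was at a median distance of 49.4 kb, with quartiles of 16.4 and 127.6 kb. Such a peak lay within 1 kb of 11 members (2.17%, 1.09 to 3.84%), within 10 kb of 93 (18.3%, 15.0 to 21.9%) and within 100 kb of 353 (69.5%, 65.3 to 73.5%). Taken line by line, a Raji peak lay within 10 kb of 65 members and an L428-PAX5 peak within 10 kb of 42. Raji-only regions had a peak of another line within 10 kb in 22.2% (18.4 to 26.4%), an interval that overlaps that of Namalwa. For L428-PAX5-only regions the share was 11.6% (10.2 to 13.1%). These shares can depend on the number of peaks in the other lists, which was not tested.

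Of the 11 members within 1 kb of another line's peak, 8 were near a Raji peak and 4 near an L428-PAX5 peak, with 1 near both. The strongest of them lay on chromosome 20, 55892888 to 55893473, where the libraries had a −log10 p of 30.1 and 11.3, and a Raji peak was 513 bp away. The closest was on chromosome 17, 55082144 to 55082900, with 9.45 and 5.56 and an L428-PAX5 peak 281 bp away. Both were chosen after their values were seen.

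Most Namalwa-only regions had no other member close by. Another member lay within 100 kb of 102 regions (20.1%, 16.7 to 23.8%) and within 20 kb of 41 (8.07%, 5.85 to 10.8%). Among the other 1371 Namalwa regions, 30.5% (28.1 to 33.0%) had another of their own kind within 100 kb, but that set is larger and so denser. Raji-only regions, a set of similar size, had 13.4% (10.3 to 16.9%). Without Namalwa replicate 2, when 3021 regions counted as Namalwa-only, 48.0% had such a neighbour. A Namalwa region shared with another line lay within 100 kb of 127 members (25.0%, 21.3 to 29.0%).

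Of the members, 406 stood alone, 45 pairs formed and 4 groups held 3 regions each. The tightest group spanned 2.59 kb on chromosome 8, 144597306 to 144599898. Its members had a −log10 p of 58.5, 23.3 and 9.95 in replicate 1 and of 30.0, 11.6 and 9.92 in replicate 2. Within 100 kb of it L428-PAX5 had 10 and 6 peaks, and each Raji library had 1.

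A second group covered 7.06 kb on chromosome 4, 8393452 to 8400511. The −log10 p of its members was 9.92 to 16.7 in replicate 1 and 5.01 to 6.91 in replicate 2, and no Raji library had a peak within 100 kb. On chromosome 11, 67416478 to 67435795, the group spanned 19.3 kb, and its last member reached 44.0 and 12.3. There the pattern was the reverse, with 2 and 3 Raji peaks and no L428-PAX5 peak within 100 kb. The fourth group, on chromosome 7, 69095982 to 69192894, was spread over 96.9 kb, with values of 18.3 to 28.7 in replicate 1 and 6.68 to 15.6 in replicate 2. Both other lines had peaks within 100 kb of it, and a Raji peak lay 1.57 kb from its middle member.

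Every chromosome from 1 to 22 and X carried Namalwa-only regions, and none lay on an unplaced contig. Chromosome 1 held the most, 54 of 508 (10.6%), followed by chromosomes 2 with 44, 7 with 42 and 16 with 31. Relative to all regions of both Namalwa libraries on a chromosome, the Namalwa-only share was highest on chromosome 18, with 21 of 54 (38.9%, 25.9 to 53.1%), and chromosome 22, with 19 of 49 (38.8%, 25.2 to 53.8%). It was lowest on chromosome 3, with 17 of 99 (17.2%, 10.3 to 26.1%), and chromosome 11, with 16 of 87 (18.4%, 10.9 to 28.1%). The chromosomes named here were picked out of 23 after their values were seen, and every interval except that of chromosome 3 includes the share of 27.0% over all chromosomes.

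Raji-only regions were spread differently. On chromosome 18 they made up 2 of 36 Raji regions (5.56%, 0.680 to 18.7%) and on chromosome 16 they made up 7 of 71 (9.86%, 4.06 to 19.3%), where Namalwa-only regions made up 31 of 92 (33.7%, 24.2 to 44.3%). The intervals of Namalwa and Raji did not overlap on chromosomes 7, 16 and 18. These chromosomes were picked out of all chromosomes after their values were seen. On each of them the peak lists themselves shifted in the same direction. Chromosome 7 held 7.07% of the peaks in Namalwa replicate 1, the lower of the Namalwa values. It held 5.85% in Raji replicate 2, the higher of the Raji values. Chromosome 18 held 2.56 and 2.94% of the peaks in the Namalwa libraries against 1.76 and 1.88% in Raji (replicates 1 and 2). Chromosome 16 held 4.31 and 4.70% against 3.17 and 2.96%. On chromosome 3 the Namalwa libraries had 6.46 and 4.89% and the Raji libraries 7.75 and 6.73%. The part of these list-wide shifts in the Namalwa-only shares was not tested.

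**Figure D5:**
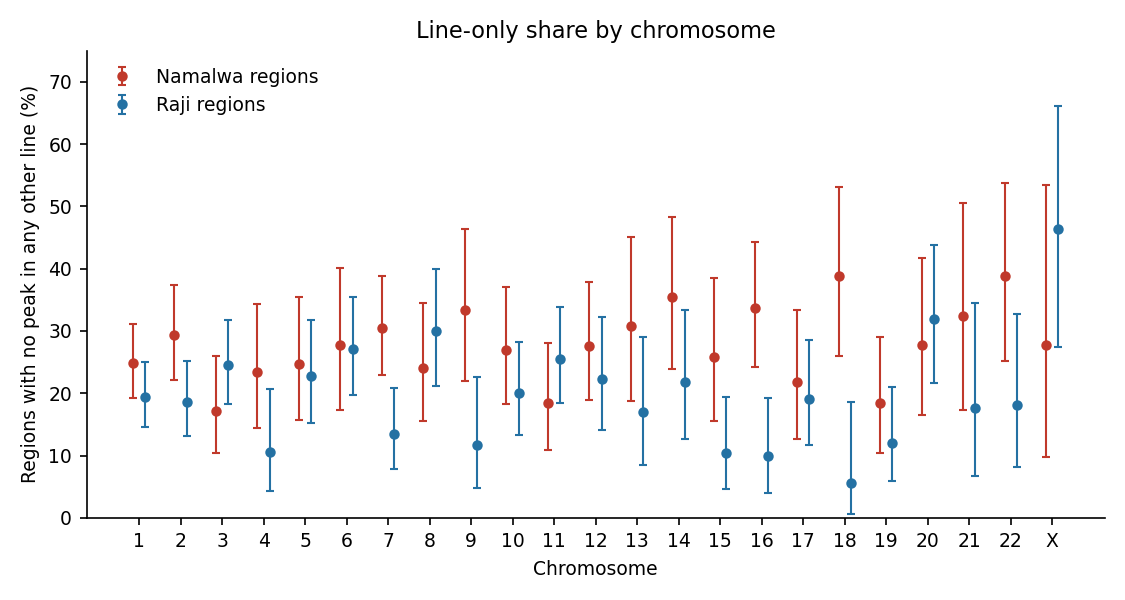
For each chromosome (horizontal) the share of regions of both libraries of a line that had no peak in another line (vertical, %) is shown for Namalwa (red) and Raji (blue), with exact 95% intervals over regions. Namalwa-only shares run from 17.2% on chromosome 3 to 38.9% on chromosome 18, where the Raji-only share is 5.56%.

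A larger share of Namalwa-only regions than of other Namalwa regions lay near the first or last peak of a chromosome. The gap was widest among the stronger ones. The end was taken as the first or last peak of any list on the chromosome, which can lie far from where the chromosome's coordinates start or stop. Within 5 Mb of it lay 99 of the 508 members (19.5%, 16.1 to 23.2%), 172 of the 1371 other Namalwa regions (12.5%, 10.8 to 14.4%) and 31 of the 441 Raji-only regions (7.03%, 4.83 to 9.83%). Of the 2043 L428-PAX5-only regions 292 lay there (14.3%, 12.8 to 15.9%). Of the members with a mean percentile above the median of all Namalwa regions, 48 of 175 (27.4%, 21.0 to 34.7%) lay there, against 99 of 764 other regions (13.0%, 10.7 to 15.5%). Below that median the shares were 15.3% (11.6 to 19.6%) and 12.0% (9.55 to 14.9%), and the intervals overlapped. Among the 15 leading members 8 lay within 5 Mb of an end. These include the member on chromosome 22, which was 2.62 Mb from the first peak there but starts 20.0 Mb along the chromosome.

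The 99 regions came from 21 chromosomes, led by chromosome 16 with 14, and 59 were at the last and 40 at the first peak of their chromosome. The 40 include 4 on chromosome 22 and 2 on chromosome 15, where the first peak lies far from the start of the chromosome's coordinates. Leaving out each chromosome in turn gave 17.8 to 20.7% for the members and 11.8 to 13.2% for the other regions. Without Raji replicate 2 the shares were 16.4% (13.9 to 19.1%) and 13.0% (11.1 to 15.1%), and their intervals overlapped. Without Namalwa replicate 2 they were 14.5% (13.3 to 15.8%) and 11.8% (10.7 to 12.9%). Whole lists differed between the lines as well: 13.1 and 15.1% of the peaks of the Namalwa libraries lay within 5 Mb of an end, 10.6 and 9.74% of those of the Raji libraries and 14.9 and 13.5% of those of the L428-PAX5 libraries. The part of these list-wide differences in the result was not tested.

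On a scale of 5 Mb, the members were most dense on chromosome 16 between 85 and 90 Mb. That window held 9 Namalwa-only regions, 9 other Namalwa regions, 10 L428-PAX5-only regions and no Raji-only region. Its peaks numbered 45 and 21 in the Namalwa libraries, 6 and 15 in Raji and 39 and 13 in L428-PAX5. The window from 20 to 25 Mb of chromosome 22 held 8 members and 3 Raji-only regions, and that from 40 to 45 Mb of chromosome 21 held 7 members and no Raji-only region. These windows were chosen after their values were seen, and 137 of the windows with any merged region held exactly 1 member while 338 held none.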

How the data were processed

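ChIP-seq of PAX5 gave 6 immunoprecipitated libraries, each with an input library, and the sample titles set the groups. The authors deposited 1 peak list per immunoprecipitated library, on hg19, with a p-value per peak; the unit was read from the values. The submitters' processing notes name CASAVA 1.3 and 1.8 and BWA 0.5.9-r16, and the peak names carry PeakRanger. The sources used here do not give the caller's settings, its use of input, or whether starts count from 0 or 1. Input libraries were not analysed here.

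Peaks that overlapped by 1 bp or touched were merged through chains. A region's strength is the mean, over both lists of a line, of the percentile of its best −log10 p. Distances are gaps between region edges. Beside each share stands its exact 95% interval (Clopper-Pearson), for counting error only. No test was run: the rule used these lists, and 2 libraries a line cannot reach an exact p of 0.05. Named were the 15 highest and 5 lowest members by strength, the 5 widest, groups of 3 or more within 100 kb, and the 5 regions outside the rule with the weakest single peak in another line. The members, rules and measures were chosen with earlier results of these data known. The planned gene lists, distances to transcription starts and motif searches were not run, since no hg19 annotation or sequence was used here. Merging and counting were tested on simulated lists. The scripts ran under Python 3.11.15 with pandas 2.3.3, numpy 2.4.6, matplotlib 3.10.9 and scipy 1.17.1.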

Additional observations from a re-analysis of the deposited data

How the results depend on the processing

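The number of Namalwa-only regions was 492 with a reciprocal overlap of 50%, 483 with peak centres within 200 bp, 461 in equal-length lists and 281 in the better 50% of each list, where fewer peaks enter by construction. Leaving out each library gave 511 to 3021 (highest without Namalwa replicate 2, when 1 library suffices, and 794 without Raji replicate 2). Their share of the Namalwa regions was 29.1% in the better 50%, 33.7% in equal-length lists and 27.2 to 49.0% with a library left out. The share with a member within 100 kb was 12.8% in the better 50%, 16.1% in equal-length lists and 20.0 to 48.0% with a library left out, and 8.07% within 20 kb. Chromosome 1 held 10.6%, and the leading chromosome 10.2 to 11.6% with a library left out. Distances to the first or last peak of a chromosome were measured after seeing the data. Within 2 Mb the shares were 9.06% of members and 5.40% of other Namalwa regions, and within 10 Mb 33.1% and 21.5%. In the better 50% of each list they were 23.8% and 13.3%. The members' share was the higher in all 12 settings run for it. Its interval overlapped that of the other regions without Raji replicate 2 and within 2 Mb. No paired analysis was possible because the result comes from no test. The alternatives for transcription starts and motifs were not run, since no hg19 annotation or sequence was used here.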
